A study of Mus musculus with 20 samples.

Results

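The γδ T cell receptor constant genes Trdc, Tcrg-C1, Tcrg-C2 and Tcrg-C4 and the lineage factors Sox13, Maf, Blk and Etv5 are described here in single thymocytes sorted as TCRβ+ and NK1.1-, lacking CD4 and CD8αβ. The study's text gives the sort as NK1.1- and the series' design text as NK1.1+, and the study's text is followed here. The 8 genes were chosen by their function and by their measured transcript counts across these same sorted populations, so their levels are given as a description, with no test. Of the 8 genes, 7 had a row among the 25246 genes counted, and Tcrg-C2 had none. Cells were kept if the deposited annotation gave them a population and they held at least 2000 transcripts, which left 1413 of 1920 sorted cells. The 77 cells with 2000 to 2499 transcripts, just inside that threshold, held Trdc in 7.79%, and the 101 cells with 1500 to 1999, just outside it, in 5.94%.

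By the series' design text the cells came from 1 mouse of each genotype, 3 in all, whereas the study's text also speaks of mice in the plural. All 3 genotypes carried TBGR, a reporter that makes cells expressing T-bet fluoresce green (ZsGreen). The TBGR mouse, labelled wild type for C-Myc, was 4 weeks old. The TBGR C-myc fl/fl mouse was 2 weeks old and carried a floxed C-myc gene without deletion. The TBGR C-myc delta/delta Cd4 mouse was also 2 weeks old, and its C-myc gene was deleted by Cre driven by Cd4, which is active from the CD4+CD8+ thymocyte stage. Cells were sorted as CD122-T-bet- or as CD122+ with no (CD122+T-bet-), intermediate (T-bet int) or high reporter signal (T-bet high). T-bet+ cells of the deleted mouse were not analysed here. TBGR and deleted mice gave 2 libraries per population. The fl/fl mouse gave 4, each of which held the 2 T-bet- populations or the 2 T-bet+ populations together. The libraries of 1 mouse are technical samples, so differences between genotypes are differences between these mice, and age cannot be told apart from genotype where the TBGR mouse is set beside the others.

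A γδ T cell carries a receptor made of a γ and a δ chain in place of the α and β chains. The δ chain gene lies within the α chain locus, and rearrangement of Vα to Jα removes it, whereas the γ chain genes stay in the genome of αβ T cells, in which their transcription can be silenced. Sox13 is an HMG-box transcription factor of immature γδ thymocytes, Etv5 an ETS factor of the Sox13+ γδ subset, Blk a Src-family kinase needed for IL-17-producing γδ cells, and Maf a bZIP factor that directs γδ cells to IL-17 production and is also used by other T cell subsets.

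Among the γ chain constant genes, Tcrg-C1 and Tcrg-C2 are near-copies and Tcrg-C4 is not, which bears on what a read can be assigned to. In GRCm38 (GENCODE release M21), Tcrg-C1 lies on chr13:19214103-19217024, Tcrg-C2 on chr13:19304649-19307551 (minus strand), and Tcrg-C4 on chr13:19344558-19352756. Trdc lies on chr14:54142851-54148868. Aligned over 909 bases, Tcrg-C1 and Tcrg-C2 were identical at 96.1%, and 21.9% of 50-base windows in the last 300 bases of Tcrg-C1 occurred unchanged in Tcrg-C2. Tcrg-C1 and Tcrg-C4 were identical at 68.0% and shared no such window. Reads that mapped to more than 1 place were discarded upstream, so Tcrg-C1 could lose reads, and a cell that used only Tcrg-C2 could count as lacking a γ chain transcript. The stretch printed next is coding sequence, and runs from base 301 of the Tcrg-C1 transcript, near the end of exon 1, across exon 2 (chr13:19215864-19215908) into exon 3. It is shown because it holds the exon 2 bases that Tcrg-C2 lacks and the bases that Tcrg-C4 has in addition. In Tcrg-C1 the capitals mark the 15 bases that Tcrg-C2 lacks, and in the other genes they mark bases that differ from or are added to Tcrg-C1.
Tcrg-C1: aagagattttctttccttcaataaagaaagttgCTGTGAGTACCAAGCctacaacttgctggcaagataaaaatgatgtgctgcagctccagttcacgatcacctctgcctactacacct
Tcrg-C2: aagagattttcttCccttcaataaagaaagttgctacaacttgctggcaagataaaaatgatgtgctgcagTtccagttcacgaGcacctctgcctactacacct
Tcrg-C4: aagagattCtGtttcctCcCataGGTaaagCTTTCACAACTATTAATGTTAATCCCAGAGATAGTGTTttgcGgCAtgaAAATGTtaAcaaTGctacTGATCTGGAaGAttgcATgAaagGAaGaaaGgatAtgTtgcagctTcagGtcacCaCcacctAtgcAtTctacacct
Tcrg-C2 differed from Tcrg-C1 here at 3 bases beside the missing 15, and Tcrg-C4 at 30 bases, with 54 added.

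Depth and sort were checked before the members were read. The 20 libraries held 233454 to 775264 transcripts in kept cells, and the 28 library populations (the cells of 1 population in 1 library) held 22 to 94 cells, with median depths of 3298 to 7809.5 transcripts per cell. Each cell barcode was used by 10 libraries. Tbx21, which encodes T-bet, followed the gates, with 0, 1.36, 48.0 and 165 transcripts per 1000000 (CPM) across the 4 TBGR populations in this order. Myc, the deleted gene, had 42.0 CPM in fl/fl and 24.8 CPM in deleted CD122-T-bet- cells, and 99.0 and 25.1 CPM in CD122+T-bet- cells, with overlapping libraries in both. The deleted exons are not stated in the sources used here, so a 3′ count of Myc may not report the deletion. Barcodes to which no cell was assigned held 0.538% as many transcripts as cells, and 4.35% in TBGR T-bet high library 2. Intervals are exact 95% intervals and cover counting error only. For a count of 0, the limit given is instead the share or level that 3 transcripts would make.

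Trdc, the constant gene of the δ chain, was found in every T-bet- population and in few or no T-bet+ cells. In the TBGR mouse it had 66.1 and 109 CPM in the CD122-T-bet- libraries, 52.9 and 79.3 CPM in the CD122+T-bet- libraries, 6.06 and 12.6 CPM in the T-bet int libraries and 0 in both T-bet high libraries. The ranges of the T-bet- populations overlapped, and both lay above the T-bet int libraries. In the fl/fl mouse the CD122-T-bet- libraries had 194, 88.4, 57.8 and 250 CPM and the CD122+T-bet- libraries 13.8, 8.90, 4.51 and 10.6 CPM, so that here the CD122+T-bet- cells were already near the level of the T-bet int cells. The T-bet int libraries of this mouse ranged from 0 to 12.4 CPM and the T-bet high libraries from 0 to 11.0 CPM. The deleted mouse had 381 and 324 CPM in CD122-T-bet- and 254 and 179 CPM in CD122+T-bet- libraries, the highest levels of Trdc among the groups of each population.

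Counted in cells, Trdc was detected in 26 of 174 TBGR CD122-T-bet- cells (14.9%), 29 of 186 CD122+T-bet- cells (15.6%), 10 of 171 T-bet int cells (5.85%) and 0 of 147 T-bet high cells. There the count of 0 allows a share of cells with detected Trdc of up to 2.04% and a level of up to 4.26 CPM. It sets no limit on the share of cells that hold undetected Trdc RNA. In the fl/fl mouse it was detected in 24.2, 4.10, 1.72 and 1.79% of cells of the same populations, and in the deleted mouse in 46.1% of CD122-T-bet- and 16.8% of CD122+T-bet- cells. With every cell thinned to 2000 transcripts the shares were 7.33, 6.72, 2.18 and 0% in TBGR, 14.5, 2.18, 1.40 and 0.465% in fl/fl, and 31.3 and 9.82% in deleted cells. Barcodes without a cell held Trdc in 0.313%, at a median depth of 17.5 transcripts. The shares under 6%, in T-bet+ cells and in fl/fl CD122+T-bet- cells, rested on 0 to 10 cells each.

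A small number of cells carried much of the Trdc RNA. Of 185 cells with Trdc, 96 held a single transcript, and 21 cells with over 10 transcripts held 372 of all 737 (50.5%). In TBGR CD122+T-bet- cells, 3 cells held 60 of the 96 Trdc transcripts, and in TBGR CD122-T-bet- cells 3 cells held 52 of 86. In deleted CD122+T-bet- cells, 5 cells held 119 of 152, with 54 in the highest cell. In CD122-T-bet- cells of the 2-week-old mice the cells over 10 transcripts held a smaller part, with 98 of 265 in 7 cells of the deleted and 43 of 113 in 3 cells of the fl/fl mouse.

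The γ chain genes ran the other way along the populations of the TBGR mouse. Tcrg-C1 had 99.2 and 282 CPM in CD122-T-bet- libraries, 393 and 251 CPM in CD122+T-bet- libraries, 486 and 534 CPM in T-bet int libraries and 728 and 544 CPM in T-bet high libraries. The CD122-T-bet- and CD122+T-bet- libraries overlapped, whereas both T-bet+ populations lay above them. Tcrg-C4 had 43.4 and 205 CPM in CD122-T-bet-, 386 and 398 CPM in CD122+T-bet-, 356 and 697 CPM in T-bet int and 785 and 437 CPM in T-bet high libraries, so only the first population stood apart from the rest. The share of cells with Tcrg-C4 went from 29.9% (52 of 174) to 81.2%, 84.2% and 88.4% (130 of 147). Barcodes without a cell held Tcrg-C1 in 2.08% and Tcrg-C4 in 1.93%. These barcodes held 31 transcripts of the 2 genes in TBGR T-bet high library 2 and 5 in library 1. Library 2 supplied 48 of the 140 TBGR T-bet high cells with a γ chain transcript. The part of this background in the shares was not tested.

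At 2 weeks of age, Tcrg-C1 overlapped between neighbouring populations in the fl/fl mouse and did not overlap in the deleted mouse. In fl/fl cells Tcrg-C1 had 209, 276, 354 and 290.2 CPM across the populations, with single libraries from 75.6 to 493 CPM. The fl/fl T-bet- populations share 4 libraries, and within each Tcrg-C1 was higher in CD122+T-bet- cells. The log2 ratios were 0.07, 0.92, 0.51 and 0.43, where the median gene had a pooled ratio of 0.63. Tcrg-C4 had 126, 97.7, 0 and 30.5 CPM in the fl/fl CD122-T-bet- libraries and 129, 89.0, 58.6 and 53.0 CPM in the CD122+T-bet- libraries, which overlapped. It then had 154, 218, 268 and 228 CPM in T-bet int libraries, all above the CD122+T-bet- libraries, and 95.7, 195, 231 and 75.1 CPM in T-bet high libraries. In the deleted mouse Tcrg-C1 had 268 and 287 CPM in CD122-T-bet- and 441 and 530 CPM in CD122+T-bet- libraries, and Tcrg-C4 104 and 171 CPM against 368 and 284 CPM, without overlap for either gene.

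**Figure D1:**
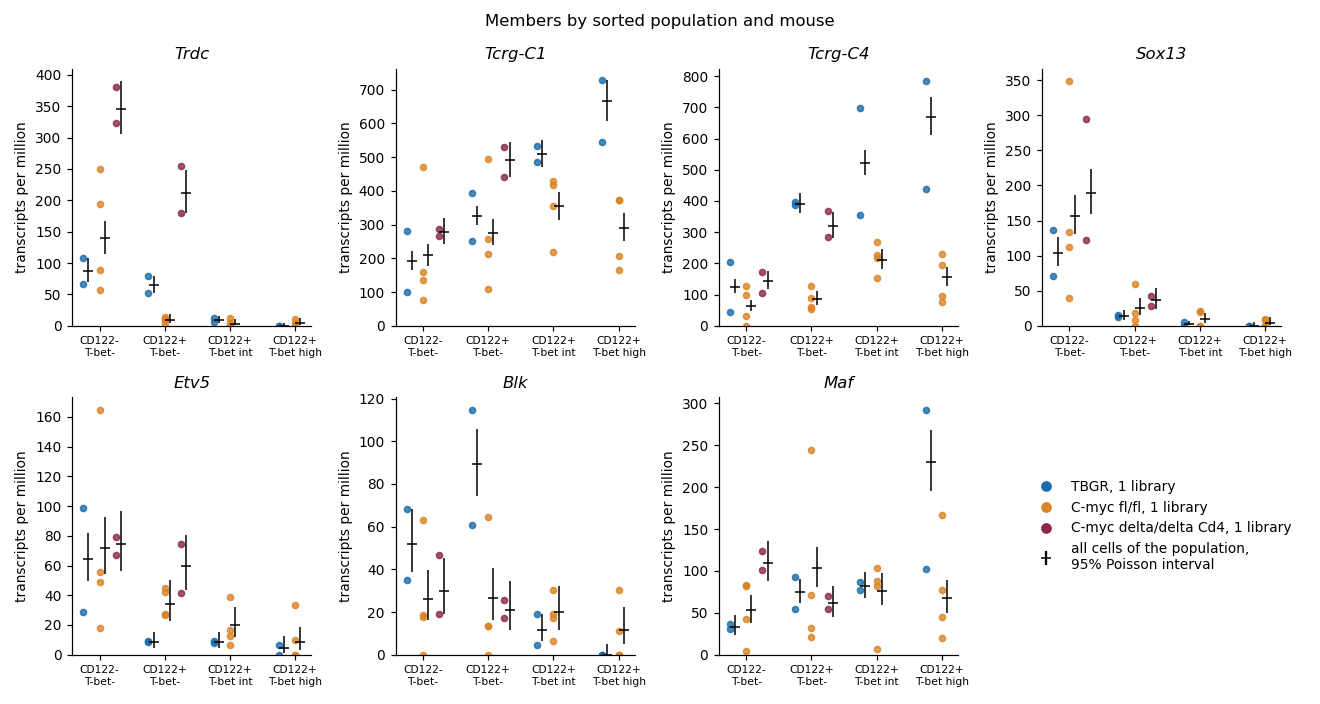
Level of each counted member in CPM (y axis) by sorted population (x axis) and mouse (colour of the points). Points are libraries, and black dashes with bars are the summed cells with 95% exact Poisson intervals. Trdc falls to 0 in TBGR T-bet high cells while Tcrg-C1 and Tcrg-C4 are highest there, at 667 and 670 CPM.

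Cells with a γ chain transcript and no Trdc transcript were set apart from cells with Trdc. Over all 1413 cells, 914 held Tcrg-C1 or Tcrg-C4, and 780 of these held no Trdc. In the TBGR mouse the share of γ-positive cells without Trdc was 79.7% (55 of 69, interval 68.3 to 88.4%) in CD122-T-bet-, 83.7% (139 of 166) in CD122+T-bet-, 95% (151 of 159) in T-bet int and 100% (140 of 140, interval 97.4 to 100%) in T-bet high cells. Both T-bet high libraries were at 100%, with 92 and 48 γ-positive cells, and 95.2% of all TBGR T-bet high cells held a γ chain transcript with no δ chain transcript counted. The same class made up 57.1% of the T-bet high cells of the fl/fl mouse.

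In the younger mice the split depended on the population. In fl/fl CD122-T-bet- cells 38.9% of γ-positive cells (14 of 36, interval 23.1 to 56.5%) lacked Trdc, with 35.7, 60.0, 0 and 42.9% by library. Among CD122+ cells of that mouse without, with intermediate or with high T-bet the share was 93.8% (45 of 48), 97.3% (72 of 74) and 98.5% (64 of 65). The deleted mouse had 43.5% (27 of 62) in CD122-T-bet- cells, with 31.0 and 54.5% in its libraries, and 76.8% (73 of 95) in CD122+T-bet- cells, with 70.7 and 81.5%. A cell counted without Trdc can still hold undetected Trdc RNA. Thinning every cell to 2000 transcripts put the shares at 86.1, 92.3, 98.3 and 100% in TBGR, 58.2, 96.4, 97.5 and 99.7% in fl/fl and 56.2 and 84.7% in deleted cells.

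The reverse question is how many Trdc-positive cells held a γ chain transcript. In CD122-T-bet- cells it was 14 of 26 in the TBGR mouse (53.8%, interval 33.4 to 73.4%), 22 of 29 in the fl/fl mouse (75.9%) and 35 of 59 in the deleted mouse (59.3%). In CD122+T-bet- cells it was 27 of 29 (93.1%, interval 77.2 to 99.2%) in the TBGR mouse, 3 of 5 in the fl/fl mouse and 22 of 23 (95.7%) in the deleted mouse. The TBGR CD122-T-bet- libraries were unequal, with 3 of 12 in library 1 and 11 of 14 in library 2.

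**Figure D2:**
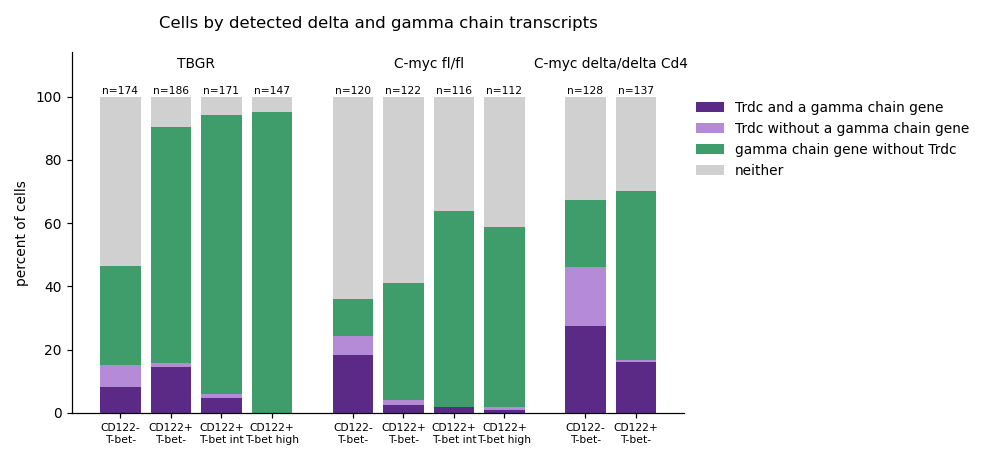
Percent of cells (y axis) with Trdc and a γ chain transcript, Trdc alone, a γ chain transcript without Trdc, or neither, by mouse and population (x axis). The class with a γ chain transcript and no Trdc makes up 95.2% of TBGR T-bet high cells and 11.7% of fl/fl CD122-T-bet- cells.

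Variable gene segments gave little to place these cells. All 7 V and D segment genes that had any transcript together held 18 transcripts in 16 cells, 7 of which also held Trdc, and no such gene exceeded 7 transcripts. Tcrg-C3, the remaining γ constant gene, held 14 transcripts in 13 cells, against 3244 for Tcrg-C1 and 2594 for Tcrg-C4. It was 97.2% identical to Tcrg-C1, and 42.6% of 50-base windows in its last 300 bases occurred in Tcrg-C1, so reads of it could be discarded too.

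Among the lineage factors, Sox13 had its highest level of each mouse in CD122-T-bet- cells. The TBGR mouse had 70.3 and 137 CPM in CD122-T-bet- libraries, 15.5 and 13.0 CPM in CD122+T-bet- libraries, 0 and 4.74 CPM in T-bet int libraries and 0 in both T-bet high libraries. The fl/fl mouse had 349, 112, 40.03 and 134 CPM in CD122-T-bet- and 59.9, 8.90, 18.0 and 0 CPM in CD122+T-bet- libraries, where the lowest CD122-T-bet- library fell below the highest CD122+T-bet- library. The deleted mouse had 294 and 122 CPM against 28.6 and 42.3 CPM. Sox13 was thus lower in CD122+T-bet- than in CD122-T-bet- cells in all 3 mice, with overlap between these populations in fl/fl alone. The fl/fl T-bet int libraries held 5, 0, 0 and 3 Sox13 transcripts and the T-bet high libraries 2, 0, 0 and 1, which overlapped.

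Etv5 was concentrated in the same population in the TBGR mouse, with 28.9 and 98.7 CPM in CD122-T-bet- libraries and 9.03 and 8.65 CPM in CD122+T-bet- libraries. T-bet int libraries had 7.58 and 9.49 CPM and T-bet high libraries 6.36 and 0 CPM. In the fl/fl mouse the CD122-T-bet- libraries had 165, 55.8, 17.8 and 48.8 CPM and the CD122+T-bet- libraries 27.7, 26.7, 45.1 and 42.4 CPM, which overlapped. In the deleted mouse they had 66.9 and 79.3 against 41.3 and 74.7 CPM, again with overlap.

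Blk had its highest level in TBGR CD122+T-bet- cells, with 115 and 60.5 CPM, beside 35.1 and 68.5 CPM in CD122-T-bet-, 4.55 and 19.0 CPM in T-bet int and 0 in both T-bet high libraries. In the 2-week-old mice no Blk library exceeded 64.5 CPM, and in the fl/fl mouse library 1 held 13 of the 21 CD122-T-bet- transcripts and 14 of the 20 CD122+T-bet- transcripts.

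Maf alone among the factors was highest in T-bet high cells in the TBGR mouse, with 293 and 103 CPM, against 86.4 and 77.5 CPM in T-bet int, 92.9 and 54.8 CPM in CD122+T-bet- and 31.0 and 36.2 CPM in CD122-T-bet- libraries. It was detected in 49.7% of TBGR T-bet high cells and in 12.1, 15.6 and 18.1% of the other populations. In the fl/fl mouse the T-bet high libraries had 45.3, 20.05, 77.0 and 167 CPM, within the 6.22 to 104 CPM of its T-bet int libraries except for library 4. Its CD122-T-bet- libraries had 82.4, 83.7, 4.45 and 42.7 CPM and its CD122+T-bet- libraries 244, 71.2, 31.6 and 21.2 CPM, so that the highest Maf library of this mouse was a CD122+T-bet- library. In the deleted mouse Maf ran downward, with 124 and 101 CPM in CD122-T-bet- and 69.9 and 54.8 CPM in CD122+T-bet- libraries.

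Ratios between groups were formed for all genes with at least 20 transcripts in the larger group, and a gene was called where the libraries of the groups did not overlap and the log2 ratio was at least 1 in size. Because the same values had a part in choosing the members, the shares called over all genes are printed beside the counts and nothing is read from them. In the TBGR mouse, CD122+T-bet- over CD122-T-bet- had 2 members called higher, where 15.1% of 8207 genes were, and 2 called lower, where 3.45% were. Tcrg-C4 was higher by 1.64 (log2, 95% interval 1.36 to 1.93) and Maf by 1.14, and Sox13 was lower at -2.84 and Etv5 at -2.82. Single libraries bore on 3 of these 4 calls. Without TBGR replicate 3, a CD122-T-bet- library, Tcrg-C4 had a ratio of 0.92, without replicate 1, a CD122+T-bet- library, Maf had 0.70, and without replicate 4, the other CD122-T-bet- library, Etv5 had -1.71 on fewer than 20 transcripts. Against the median gene Maf stood at 0.80, and with cells thinned the Etv5 ratio, -2.55, was not called. The ratio of Trdc was -0.43 and of Tcrg-C1 0.76, both with overlapping libraries.

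In the same mouse, T-bet int over CD122+T-bet- had no member called higher (3.32% of 8346 genes) and 3 called lower (6.64%). These were Blk at -2.90 (interval -3.82 to -2.17), Trdc at -2.76 (-3.82 to -1.94) and Sox13 at -2.43, the last resting on 21 transcripts and left with fewer than 20 when either CD122+T-bet- library was taken out. T-bet high over T-bet int had Maf called higher at 1.48 (6.9% of 7539 genes higher, 12.8% lower), and this ratio was 0.35 without TBGR replicate 5, T-bet high library 1. With 0 transcripts against 12, Trdc was at least 2.18-fold lower in T-bet high cells, and Blk, with 0 against 15, at least 2.73-fold lower, taking 3 counts over the group as the floor and the counts of 12 and 15 as exact. With the counting error of both groups, the log2 ratios reached up to -0.60 for Trdc and -0.97 for Blk.

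In the fl/fl mouse, CD122+T-bet- over CD122-T-bet- had Trdc called lower at -3.82 (interval -5.26 to -2.83), where 0.996% of 5119 genes were called lower and 6.45% higher. The populations share libraries here, and within the 4 libraries the Trdc ratio was -3.61, -3.03, -3.15 and -3.99. Sox13 had -2.50, -3.36, -1.06 and -4.69 within the same libraries and a pooled ratio of -2.61, lower within each library although the libraries overlapped across the populations. The median gene with at least 100 transcripts had a ratio of 0.63 in this comparison, and against it the positive ratios of Tcrg-C1 (0.40), Tcrg-C4 (0.44) and Blk (0.03) became -0.23, -0.19 and -0.60. T-bet int over CD122+T-bet- had Tcrg-C4 called higher at 1.27 (0.58% of 5513 genes higher, 0.453% lower). T-bet high over T-bet int had no member called (1.55% of 5407 genes higher, 3% lower), with Tcrg-C1 at -0.29 and Tcrg-C4 at -0.44. Within the 4 libraries Tcrg-C4 had -0.67, -0.15, -0.21 and -1.54, where the median gene had a pooled ratio of -0.22.

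In the deleted mouse, CD122+T-bet- over CD122-T-bet- had Tcrg-C4 called higher at 1.14 (14.8% of 5820 genes) and Sox13 lower at -2.36 (8.57%). The Tcrg-C4 ratio was 0.97 without replicate 1 and 0.90 without replicate 3 of that mouse, and 0.83 with cells thinned. The libraries of Trdc (-0.70), Tcrg-C1 (0.81) and Maf (-0.83) did not overlap either, at ratios under 1 in size. Thinned, the Trdc ratio was -1.32 and the Maf ratio -1.46.

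The deleted mouse was set beside the fl/fl mouse of the same age, a comparison of 1 mouse with 1 mouse. In CD122-T-bet- cells Trdc was called higher in the deleted mouse at 1.31 (interval 0.99 to 1.64) and Maf at 1.04, where 14.8% of 5144 genes were called higher and 0.953% lower. The median gene had a ratio of 0.48 here, and against it Trdc stood at 0.83 and Maf at 0.56. The Maf ratio was 0.60 without fl/fl replicate 3, 0.97 without fl/fl replicate 4 and 0.92 without replicate 3 of the deleted mouse. Tcrg-C1 (0.42), Sox13 (0.27), Blk (0.21) and Etv5 (0.06) had libraries that overlapped, and each fell below 0 against the median gene. Tcrg-C4 (1.17) overlapped as well and stood at 0.69 against it. In CD122+T-bet- cells Trdc was called higher at 4.43 (interval 3.44 to 5.86), a 21.5-fold difference between 152 and 7 transcripts, and Tcrg-C4 at 1.87 (1.48 to 2.30), where 15.1% of 5779 genes were called higher and 7.04% lower. With cells thinned the Trdc ratio was 3.45. Both the share of cells with Trdc, 16.8% against 4.10%, and the transcripts in those cells differed, with 152 in 23 cells against 7 in 5 cells. Of the 152, 119 were in 5 cells.

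**Figure D3:**
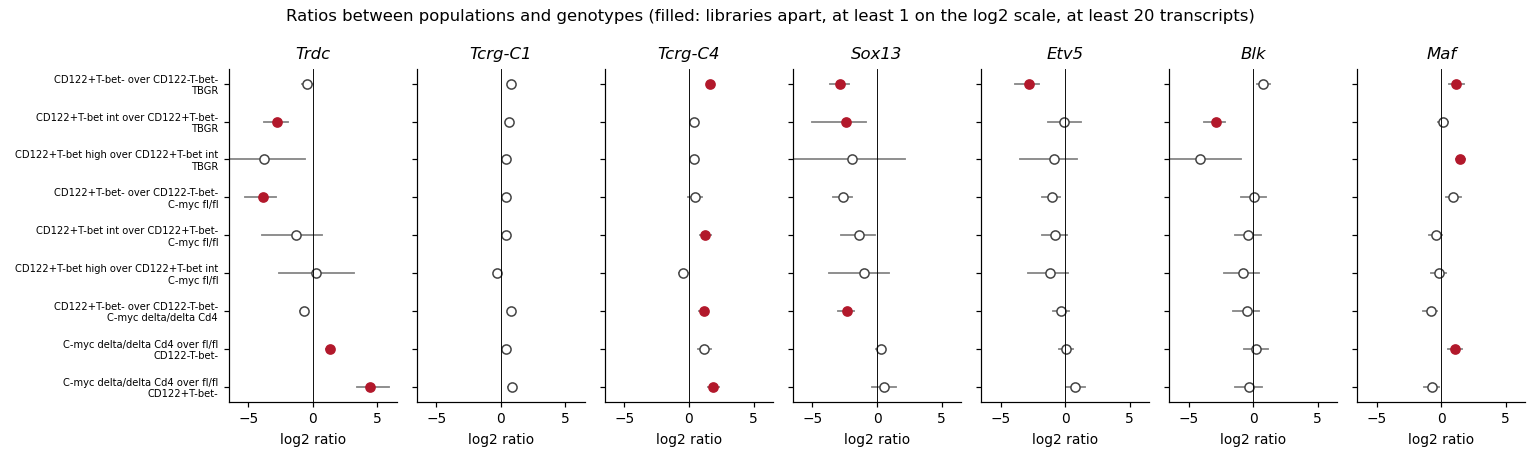
Log2 ratio (x axis) of each counted member in the 9 comparisons (y axis), with 95% counting intervals cut at the axis limits; filled points mark called members. Trdc has the largest called ratio, 4.43, between the CD122+T-bet- cells of the deleted and fl/fl mice.

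The factors were next read by receptor class in the 867 T-bet- cells, pooled over the mice. The classes were made from Trdc and the γ chain genes, and the factors had no part in them. Sox13 was found in 9.63% of the 696 cells with no Trdc transcript, 19.8% of 86 cells with 1 and 56.5% of 85 cells with 2 or more (interval 45.3 to 67.2%). Etv5 was found in 12.1, 17.4 and 37.6% of these cells, Maf in 11.6, 16.3 and 28.2% and Blk in 9.05, 9.30 and 22.4%. Cells with 2 or more Trdc transcripts were also deeper, at a median of 6698 transcripts against 5352.5 with none, and its part in the shares was not tested. In CPM, which takes account of depth, Sox13 had 299, Maf 146, Blk 115 and Etv5 144 CPM in cells with 2 or more Trdc transcripts, against 36.1, 63.0, 40.4 and 28.7 CPM in cells with none. Cells with 1 Trdc transcript had 132, 41.1, 17.1 and 63.4 CPM in the same order. Maf and Blk were thus lower with 1 Trdc transcript than with none. These groups of cells also mix mice and populations in different shares. CD122-T-bet- cells, and cells of the deleted mouse, made up more of the cells with 2 or more Trdc transcripts than of those with none. The part of this mix in the shares and levels was not tested, and the interval does not cover it.

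The single library populations varied. Of the 16 T-bet- library populations, Sox13 was higher in cells with Trdc than in cells without it in 12 and lower in 3, Etv5 and Maf were higher in 10 and lower in 6, and Blk was higher in 10 and lower in 4. By mouse, Maf was higher with Trdc in 1 of 4 library populations of the TBGR mouse, 5 of 8 of the fl/fl mouse and 4 of 4 of the deleted mouse. Etv5 was higher in 4 of 4, 3 of 8 and 3 of 4, and Blk in 3 of 4, 3 of 8 and 4 of 4. Each of the 4 fl/fl CD122+T-bet- library populations had 1 or 2 cells with Trdc, so its order rests on those. Over the fl/fl CD122-T-bet- libraries, with 5 to 11 such cells, Sox13 and Maf were higher with Trdc in 4 of 4, Etv5 in 3 and Blk in 2. Differences between mice were not tested. Of 132 T-bet- cells with Sox13, 65 (49.2%) held Trdc, and of 171 cells with Trdc, 65 (38.0%) held Sox13.

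Cells with a γ chain transcript and no Trdc also held these factors, at levels that differed between the mice. In the T-bet- cells of all mice, Maf had 98.5 CPM in 171 Trdc cells, 107 CPM in 353 γ-positive cells without Trdc and 8.05 CPM in 343 cells with neither. Blk had 70.6, 67.4 and 6.44 CPM in the same order. Sox13 had 223, 52.9 and 15.0 CPM and Etv5 108, 28.6 and 29.0 CPM. These pooled values join mice and populations that make up the classes in different shares, and the single mice did not all follow them. Maf had 30.4 CPM (interval 16.2 to 51.9) in Trdc cells and 84.4 CPM (70.2 to 101) in γ-positive cells without Trdc of the TBGR mouse, 123 and 209 CPM in the fl/fl mouse and 137 and 92.2 CPM in the deleted mouse. Blk had 100.4 and 89.9 CPM in the TBGR, 59.8 and 51.6 CPM in the fl/fl and 53.7 (36.5 to 76.2) and 12.3 CPM (4.51 to 26.8) in the deleted mouse. Cells with neither were the lowest class for Maf and Blk in each mouse. Sox13 was highest in the Trdc cells of each mouse, at 149, 377 and 203 CPM, but not within the CD122-T-bet- cells of the deleted mouse, where γ-positive cells without Trdc had 337 and Trdc cells 221 CPM. Of the 47 Sox13 transcripts in the former, 26 were in 2 cells of library 1. In library 2 the levels were 242 and 119 CPM. By share the order was opposite, as Sox13 was found in 33.3% of these γ-positive cells and 44.1% of these Trdc cells. In the same deleted cells Etv5 had 122 CPM in γ-positive cells without Trdc and 81.8 CPM in Trdc cells, and in TBGR CD122+T-bet- cells with Trdc it had 12.3 CPM. Of 15 T-bet- library populations with both of the latter classes, γ-positive cells without Trdc were higher than cells with neither in 13 for Sox13, 13 for Maf, 9 for Blk and 9 for Etv5, and lower in 0, 2, 1 and 6. Median depths were 5904, 5941 and 4913 transcripts for the 3 classes, and their part was not tested.

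The γ-positive cells without Trdc were also set side by side across the T-bet gates. In the TBGR mouse, the 140 γ-positive T-bet high cells had Maf at 230.1 CPM (interval 195 to 269) and found in 51.4% of cells, with Sox13 and Blk at 0 transcripts and Etv5 at 4.40 CPM, from 3 transcripts. That Maf level rested on library 1, as the γ-positive cells of library 2 had 90.04 CPM. The 139 γ-positive CD122+T-bet- cells without Trdc had Maf at 89.3 CPM, Blk at 103 CPM and Sox13 at 13.3 CPM. In the fl/fl mouse, the 64 γ-positive T-bet high cells without Trdc had Maf at 88.8, Blk at 18.2 and Sox13 at 6.83 CPM, and its 45 γ-positive CD122+T-bet- cells without Trdc had 246, 62.2 and 49.1 CPM. By library, Maf in these cells had 344, 247, 92.1 and 71.1 CPM at CD122+T-bet- and 60.5, 29.8, 95.9 and 232 CPM at T-bet high in the fl/fl mouse, which overlapped. The TBGR T-bet high library 2 likewise lay within the 113 and 59.8 CPM of the CD122+T-bet- libraries. Markers of other cells differed between the same classes. The natural killer and innate lymphoid list (Ncr1, Eomes, Fcer1g, Tyrobp, Klrb1c, Il7r) had 340 CPM at CD122+T-bet- and 1882 CPM at T-bet high in the TBGR mouse. Ncr1 was at 0 in both, and Eomes at T-bet high alone. In the fl/fl mouse the list had 324 and 763 CPM, with Ncr1 and Eomes at 0 at CD122+T-bet- alone. Cells with neither Trdc nor a γ chain transcript also had more of it at T-bet high. They had 179 and 758 CPM in the TBGR mouse, the latter from 7 cells, and 140 and 858 CPM in the fl/fl mouse. The NKT list, in which Klrb1c is counted again, had 581 and 1212 CPM in the γ-positive cells of the TBGR mouse. It had 855 and 462 CPM in those of the fl/fl mouse, and the part of these lists was not tested. In the deleted mouse, γ-positive CD122+T-bet- cells without Trdc had Sox13 and Blk at 2.87 CPM each, from 1 transcript each, whereas its CD122+T-bet- cells with Trdc had 155 and 80.4 CPM.

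**Figure D4:**
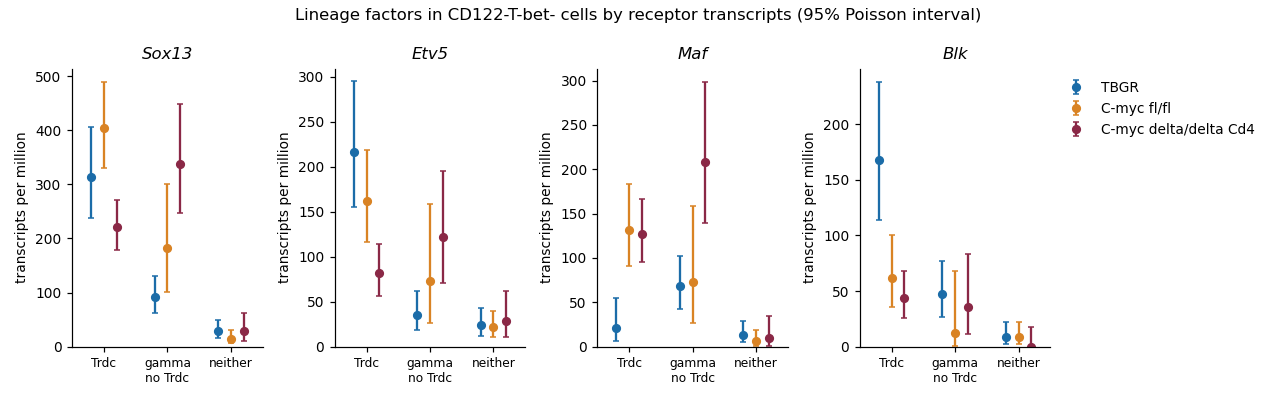
Level of Sox13, Etv5, Maf and Blk in CPM (y axis) in CD122-T-bet- cells by receptor class (x axis) and mouse (colour), with 95% exact Poisson intervals. Sox13 is highest in Trdc cells of the TBGR and fl/fl mice, at 314 and 405 CPM, and in γ-positive cells without Trdc of the deleted mouse, at 337 CPM. In the latter, 2 cells held 26 of the 47 transcripts, and 33.3% of cells held Sox13 against 44.1% of Trdc cells.

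Cells with Trdc also carried αβ receptor RNA. Trbc1, the β chain constant gene, was found in 100% of the 85 T-bet- cells with 2 or more Trdc transcripts, at 4649 CPM, and in 97.0% of cells with none, at 3307 CPM. Cells were sorted on surface TCRβ, and Trbc2 has no row. Trac, the α chain constant gene, was counted at low levels throughout. It had 28.3 CPM in cells with 2 or more Trdc transcripts and 58.7 CPM in cells with none, and was lower with Trdc in 10 of 16 library populations and higher in 4. By mouse it was lower in 2 and higher in 2 of the TBGR, lower in 4 and higher in 2 of the fl/fl and lower in 4 of 4 of the deleted library populations.

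Genes of other thymocyte stages differed in level between the classes. Dntt, which encodes the polymerase that adds bases at receptor joints, had 97.4, 29.5 and 15.3 CPM in Trdc cells, γ-positive cells without Trdc and cells with neither in TBGR CD122-T-bet- cells, 181, 146 and 23.5 CPM in fl/fl and 411, 201 and 33.3 CPM in deleted cells. Ptcra, the pre-T cell receptor α chain, had 50.1, 72.8 and 19.2 CPM in fl/fl and 130, 7.17 and 19.0 CPM in deleted cells, with 2 transcripts in all in TBGR cells. Il2ra, the CD25 gene, had 104, 60.7 and 12.8 CPM in fl/fl and 91.4, 0 and 4.75 CPM in deleted cells. In TBGR cells it had 0, 1 and 2 transcripts in the 3 classes. Cd4 had 557, 511 and 652 CPM in TBGR, 11.6, 36.4 and 154 CPM in fl/fl and 9.62, 93.2 and 71.3 CPM in deleted cells. The list of double positive thymocyte markers (Rag1, Rag2, Cd8b1, Cd8a, Cd4, Dntt, Ptcra) summed over the 3 classes of CD122-T-bet- cells to 703, 611 and 782 CPM in the TBGR, 304, 412 and 235 CPM in the fl/fl and 683, 387 and 247 CPM in the deleted mouse. Of its 7 genes 4 to 7 were counted in each class, and its part in the levels of the members was not tested.

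**Figure D5:**
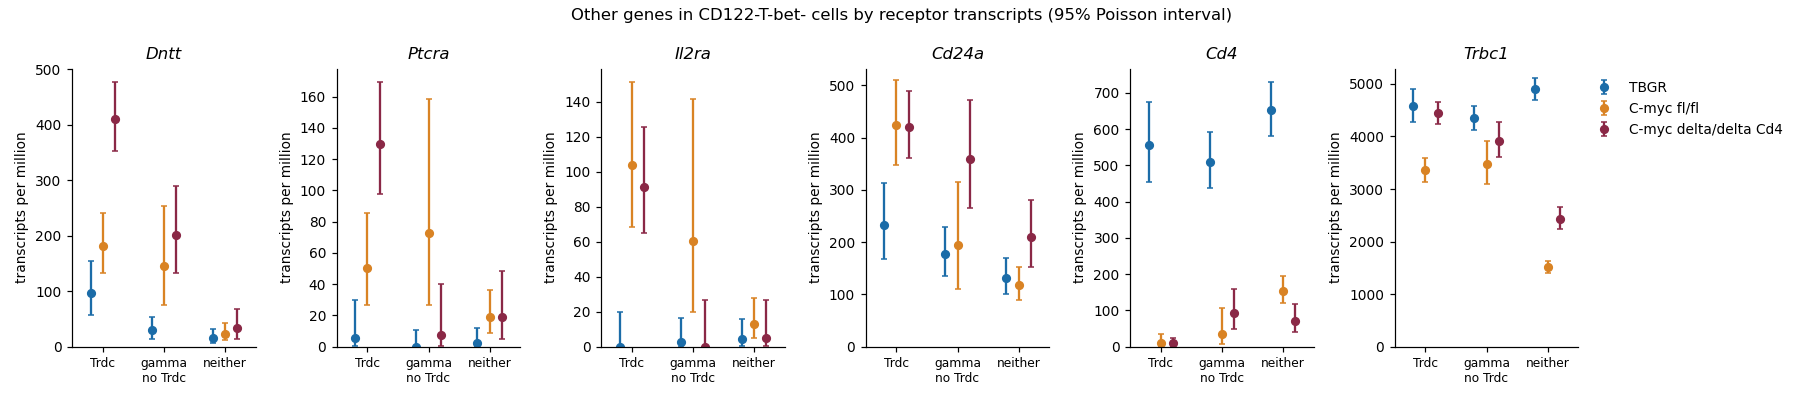
Level of Dntt, Ptcra, Il2ra, Cd24a, Cd4 and Trbc1 in CPM (y axis) in CD122-T-bet- cells by receptor class (x axis) and mouse (colour), with 95% exact Poisson intervals. Dntt is highest in Trdc cells of every mouse, at 97.4, 181 and 411 CPM, and Cd4 is high in all classes of the TBGR mouse alone.

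Lists of markers of other cell types were summed over the same classes of T-bet- cells, pooled over the mice. In T-bet- cells with Trdc, the natural killer and innate lymphoid list summed to 144 CPM with Ncr1 at 0, the B cell list to 29.5 CPM with Cd79a at 0, and the myeloid list to 82.2 CPM with Itgax at 0. In γ-positive cells without Trdc the same lists summed to 311, 68.7 and 258 CPM, again with Ncr1 and Itgax at 0, and in cells with neither to 141, 75.6 and 106 CPM. These sums pool mice that differed. Of the 141 B cell list transcripts in cells with neither, 113 were in CD122+T-bet- cells of the deleted mouse, at 548 CPM. Over all T-bet- cells with neither, that list had 36.2 CPM in the TBGR and 8.93 CPM in the fl/fl mouse. The myeloid list had 372 and 118 CPM in γ-positive cells without Trdc and cells with neither of the TBGR mouse. It had 49.0 and 40.2 CPM in the fl/fl and 84.0 and 230 CPM in the deleted mouse. The NKT list (Zbtb16, Slamf1, Icos, Gata3, Klrb1c) had 449, 570.2 and 274 CPM in the 3 classes, and the regulatory T list 73.7, 63.5 and 48.3 CPM. By mouse, the NKT list had 399, 584 and 409 CPM in the TBGR and 303, 743 and 171 CPM in the fl/fl mouse. In the deleted mouse it had 558, 391 and 314 CPM and was highest in Trdc cells. Of the scavenger receptor genes that mark γδ cells, 5830411N06Rik had 82.2, 17.1 and 0.536 CPM and Cd163l1 72.1, 20.5 and 10.7 CPM in Trdc cells, γ-positive cells without Trdc and cells with neither. Il17rb, the other gene of the γδ marker list besides the members, did not follow this order. It had transcripts in all 3 classes at similar levels.

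A wider list of 33 genes of γδ development and function, all with rows, was set beside the members. In CD122+T-bet- over CD122-T-bet- of the TBGR mouse, 25 of them had enough transcripts, and 7 were called higher (Sox5, Id3, Runx3, Il1r1, Ly6c2, Il2rb and Fcer1g) and 3 lower (Il17rb, Ccr9 and 5830411N06Rik), where 15.1 and 3.45% of all genes were. The median ratio of those 25 was 0.38, against 0.30 over all genes tested. From CD122+T-bet- to T-bet int, 2 were higher (Ly6c2, Fcer1g) and 6 lower, among them Sox4, Il1r1 and Cd24a, of 24 (3.32 and 6.64% of all genes), with a median of -0.06 against -0.02. From T-bet int to T-bet high, 3 were higher (Il7r, Cd44, Ly6c2) and 6 lower (Sox4, Sox5, Tcf7, Lef1, Id3, Ccr9) of 21 (6.9 and 12.8% of all genes). Within the T-bet- gate of the fl/fl mouse 5 of 19 were higher and 1 lower with CD122 (6.45 and 0.996%), 1 of 20 was higher and 1 lower from CD122+T-bet- to T-bet int (0.58 and 0.453%), and 2 of 18 were higher and 4 lower from T-bet int to T-bet high (1.55 and 3%). The deleted mouse had 6 of 24 higher and 7 lower with CD122 (14.8 and 8.57%). In the deleted over the fl/fl mouse, 7 of 20 were higher and none lower in CD122-T-bet- cells (14.8 and 0.953%), with a median of 0.79 against 0.49, and 4 of 21 were higher (Sox4, Gata3, Ccr9, Slamf1) and 1 lower (Zbtb16) in CD122+T-bet- cells (15.1 and 7.04%). Of the 7 αβ receptor and CD3 genes, 6 had rows, and those called in any comparison were Cd247, lower in TBGR CD122+T-bet- cells, Trac, higher in TBGR T-bet high than T-bet int cells and in both populations of the deleted over the fl/fl mouse, and Cd3e, higher in CD122+T-bet- cells of the deleted mouse.

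Across the 28 library populations, the genes whose log2 level followed Trdc most closely among 8141 genes were Colq (Pearson's r = 0.91), Ppm1l (0.88), Fam169b (0.86), Cd24a (0.86) and Ccr9 (0.84). These points share mice, libraries and depth, so the values are descriptive. Sox13 was ninth in that order at 0.81, Etv5 had 0.68 and Blk 0.42, and Tcrg-C1, Tcrg-C4 and Maf had -0.15, -0.18 and -0.10. The sum of the γ chain genes was followed by Prkar1a (0.77), Rcn1 (0.75), Gm21975 (0.74), Gem (0.74) and Cab39 (0.73), with Trdc at -0.17. Sox13 and Etv5, in turn, had 0.78 with each other, the highest value for Etv5.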

How the data were processed

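CEL-Seq2 libraries of single thymocytes were sequenced from 3 mice, 1 per genotype, in 20 libraries of 96 cells. The authors demultiplexed with bcl2fastq 2.17.1.14, aligned with BWA 0.6.2-r126 to GENCODE VM9 transcripts, merged isoforms, discarded multi-mapping reads and counted unique molecular identifiers of 6 bases on the sense strand. The deposited values are estimated counts, other than whole numbers, corrected for repeated identifiers, and were rounded here; each non-zero value was checked against that correction. Mitochondrial and ERCC rows were left out. Cells of each population come from the deposited cell annotation, with at least 2000 transcripts.

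The members and lists were chosen with earlier results of these data known, so no test was run. Counts were summed over cells by library, population and mouse (Python 3.11.15, numpy 2.4.6, scipy 1.17.1, pandas 2.3.3) and given per 1000000 transcripts with exact Poisson or Clopper-Pearson intervals of 95%, which cover counting error only. Ratios had 0.5 transcripts added to each sum. No count model was fitted, as each genotype had 1 mouse. Named genes were the 8 members, the lists above and the 5 genes most correlated (log2 of level plus 10, at least 100 transcripts) with Trdc and with the γ chain sum; Dntt, Ptcra, Il2ra, Cd24a and Cd4, and the values of other members in that ranking, were singled out after their values were seen. Doublets were not called, since each well held 1 sorted cell. The ratio and thinning scripts were tested on simulated data. Sequences came from GENCODE M21 and were aligned with biopython 1.88. Alternatives were thinning, other depth minimums (1000, 3000), 2 transcripts for a positive cell, mean cell proportions, unrounded values, the median gene as reference, cells over 2% Kcnq1ot1 left out, library overlap alone, and each library left out.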

Additional observations from a re-analysis of the deposited data

Results flagged for a closer look

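Of 32 groups of 4 libraries looked at, 1 held a library far from the others by Dixon's ratio. In fl/fl T-bet high cells, library 3 had 95% of γ-positive cells without Trdc and the other libraries 100%, a difference of 1 cell of 20. The tie of the other libraries sets the ratio to 1 whatever the size of the gap. The usual chance rate of about 1 in 20 is for continuous values and does not hold for such shares. The ratio of Maf of CD122+ to CD122- cells within the T-bet- gate was 1.14 in the TBGR mouse and -0.83 in the deleted mouse, with libraries apart in opposite directions. The fl/fl mouse, of the age of the deleted mouse, had 0.95 pooled and 1.54, -0.23, 2.34 and -0.79 within the libraries. The difference was not tested. Barcodes to which no cell was assigned, which enter no comparison, held 6 transcripts of Trdc, 45 of Tcrg-C1, 40 of Tcrg-C4 and 4 of Sox13, which is 0.784, 1.31, 1.47 and 0.791% of the transcripts these genes had in cells, beside 0.538% over all genes. TBGR T-bet high library 2 held 31 of the γ chain transcripts.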

How the results depend on the processing

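The fl/fl populations that share a library were compared paired, within each library. Trdc and Sox13 were lower, and Tcrg-C1 higher, in CD122+T-bet- than CD122-T-bet- cells in all 4. The Tcrg-C1 ratios ran from 0.07 to 0.92, where the median gene had a pooled ratio of 0.63. In the TBGR and deleted mice no paired analysis was possible because each library held 1 population. No direction of a called member reversed. The number of members called changed by over 1.5 times as follows. T-bet high over T-bet int in TBGR (1 called) gave 0 at 3000 transcripts per cell, 2 by overlap alone and 0 to 1 with a library left out. CD122+T-bet- over CD122-T-bet- in fl/fl (1) gave 2 at 1000 transcripts and 1 to 3 with a library left out, and in the deleted mouse (2) 4 by mean cell proportions, 5 by overlap alone and 1 to 3 with a library left out. T-bet int over CD122+T-bet- in fl/fl (1) gave 1 to 2 with a library left out. The deleted over the fl/fl mouse in CD122-T-bet- cells (2) gave 1 thinned, 1 by mean cell proportions, 0 against the median gene and 1 to 5 with a library left out, and in CD122+T-bet- cells (2) 2 to 4 with a library left out. Counts changed by less in TBGR, where CD122+T-bet- over CD122-T-bet- (4 called) gave 3 thinned, 3 against the median gene and 3 to 6 with a library left out, and T-bet int over CD122+T-bet- (3) gave 2 thinned. The share of γ-positive cells without Trdc moved by more than 1 SD between libraries in TBGR CD122+T-bet- cells to 92.3% thinned and 95.04% with 2 transcripts required, in T-bet int cells to 98.3 and 98.6%, and in deleted CD122+T-bet- cells to 84.7 and 85.5%. Larger shifts when thinned, from 38.9 to 58.2% in fl/fl and from 43.5 to 56.2% in deleted CD122-T-bet- cells, were within the SD of 25.2 and 16.6 between libraries there. Of 16 called ratios, 4 lost the call when thinned, 3 against the median gene, 2 by mean cell proportions and 1 at 3000 transcripts, and 11 of 76 when a library was left out. Depth limits the shares of cells with a member, as 40 of 70 moved by more than their own SD between libraries when thinned and 43 with 2 transcripts required.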
